A study of Mus musculus with 8 samples.

Results

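Mitochondrial protein import genes were examined in mouse quadriceps, a limb muscle, after sustained hypoxia. The group held every gene whose array symbol begins with Timm or Tomm, together with Pam16, Grpel1, Grpel2, Pmpca, Pmpcb, Chchd4 and Gfer, which made 31 genes on 61 probe sets, out of 18193 genes with a probe set of 1 symbol. A further 3 probe sets that pair a Tomm symbol with another gene were left out. Expression was read from total RNA on Affymetrix mouse arrays, with 4 control and 4 hypoxia samples on an array each. All samples came from adult male C57Bl/10 mice. Control mice stayed in room air for 2 weeks, and hypoxia mice were kept in a closed chamber where oxygen was brought from 21% to 8% in the first week and held at 8% for 7 days. Only the hypoxia mice are described as housed in the chamber, so its effect and that of low oxygen cannot be told apart. The labels do not state whether each sample is a different animal, so p-values measured the spread between these samples, which may be technical.

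Most mitochondrial proteins are made in the cytosol and imported. The TOM complex of the outer membrane recognises precursors and passes them through its channel, and the TIM23 complex with its Hsp70 motor draws those with a presequence into the matrix, where a peptidase removes it. Carrier proteins reach the inner membrane through small Tim chaperones and the TIM22 complex, and a disulfide relay traps small cysteine-rich proteins between the membranes. In muscle this machinery supplies a large population of mitochondria.

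After hypoxia the import genes split: the presequence receptor Tomm20, the chaperones Timm10 and Timm10b, the motor's exchange factor Grpel1 and the relay oxidase Gfer rose, while the presequence peptidase, the TIM23 regulator Timm21 and the TIM22 channel fell. Of the 31 genes, 29 passed the filter on dim probe sets, which lay at a signal of 90.2, and Tomm20l and Timm8a2 did not. In the limma comparison across 13257 genes, 7 import genes rose (Tomm20, Tomm70a, Timm17a, Grpel1, Timm10, Timm10b and Gfer) and 9 fell (Tomm40l, Tomm34, Timm21, Timm50, Timm13, Timm22, Pmpca, Pmpcb and Timmdc1) at an adjusted p of 0.05. The 16 called genes were 55.2% of the 29, and 33.6% of all genes tested were called, 14.8% higher and 18.8% lower. That share depends on brightness. With a 60% filter on dim probe sets the same 7 rises and 9 falls were called, beside 42.4% of the 9952 genes then tested. Of the 7 rises, that of Tomm70a is uncertain, because its probe sets moved in opposite directions, and of the 9 falls that of Timm50 was lost in the mean of its probe sets. In 17 of the 29 the groups lay fully apart, 8 with hypoxia above control and 9 below, against 33.4% of all genes (14.8% above and 18.7% below). The median change of the tested members was 0.024 on the log2 scale, beside -0.042 for all genes, and their median absolute change was 0.56, beside 0.42. Every tested member had a mean signal of at least 160.2 in each group, so none passed the filter through 1 group alone. Changes are hypoxia minus control on log2(signal + 16), with standard errors (SE) from the fit, and folds are on the same scale. Group signals are means ± SD (n = 4).

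**Figure D1:**
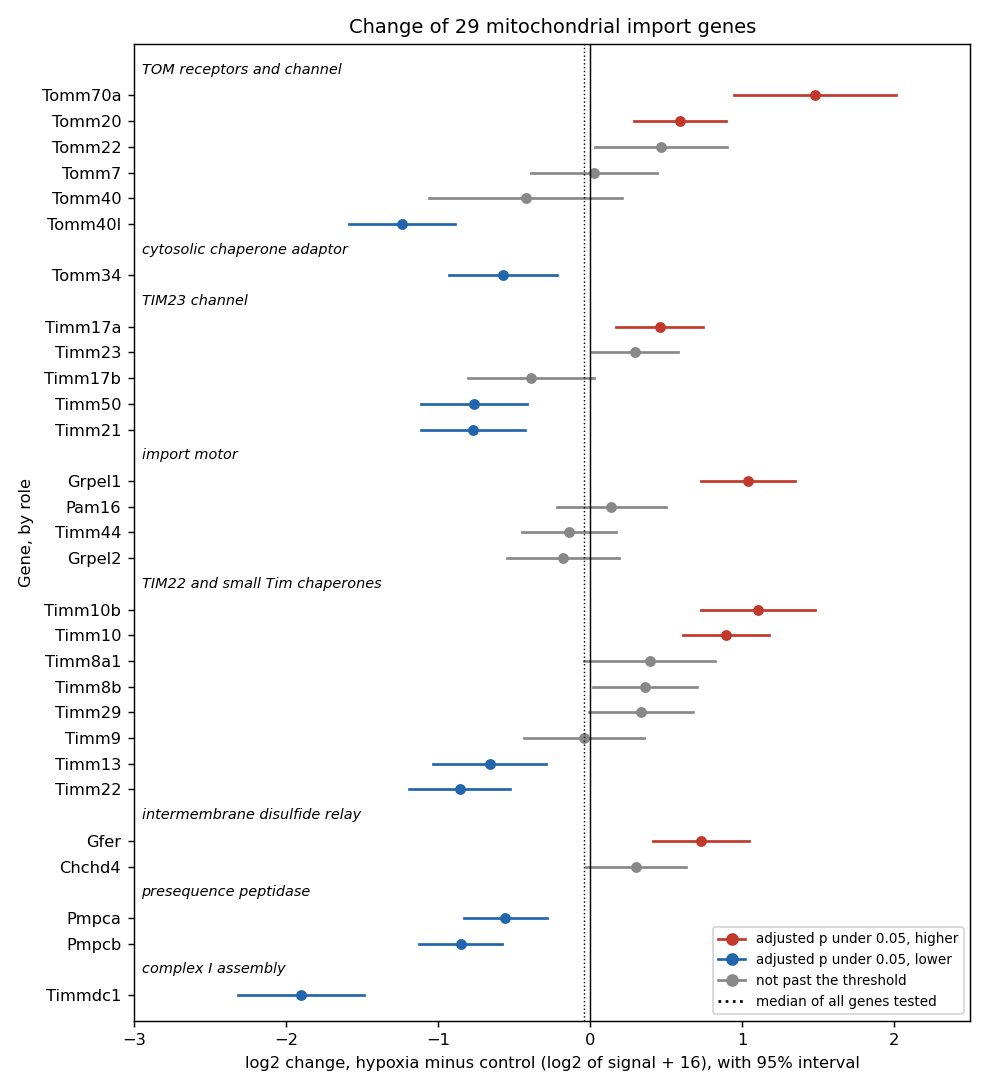
Log2 change of each of the 29 tested import genes (hypoxia minus control, on log2 of signal + 16), grouped by role, with 95% intervals from the limma fit and the median of all 13257 genes as a dotted line. Red points rose and blue points fell at an adjusted p of 0.05, from 1.48 for Tomm70a down to -1.90 for Timmdc1, and the 4 roles with more than 2 genes hold points on both sides of 0.

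Array quality differed between the groups. Control probe sets at the 3' and 5' ends of Gapdh, whose ratio is raised by broken or incompletely copied RNA, gave 3.44 on hypoxia array 1. The ratio was 0.801 to 0.874 on hypoxia arrays 2 to 4 and 0.776 to 0.807 in control. For Actb it was 2.53, 1.40 to 1.59 and 1.09 to 1.25 in the same order, so every hypoxia array lay above control. Without hypoxia array 1, 6 members rose and 9 fell, all 15 of them called in the same direction with all arrays. Summed signals of skeletal muscle fibre markers ran from 380043 to 458748 in control and from 240630.0 to 324136 in hypoxia, with 6 of 8 lower and all 8 past the filter. Fibroblast markers were lower as well, 4 of 4, with sums of 37883 to 41279.6 in control and 13169 to 17324 in hypoxia. Of 4 neutrophil markers both tested ones, S100a8 and S100a9, were higher, with sums of 204 to 538 and 2634 to 5038, while Mpo lay below the filter. Of 6 macrophage markers 1 (Cd68, log2 change 3.93) was higher and 2 lower, with overlapping sums of 9694 to 13702 and 8309 to 15658. Endothelium had 1 of 4 lower, with overlapping sums of 2454 to 5116 and 1933 to 4361. The adipocyte marker tested, Adipoq, was lower, and neither Mbp of Schwann cells nor Alas2 of red cell precursors passed. The part of these shifts in the import results was not tested, and in whole muscle fewer cells of a type and less RNA per cell cannot be told apart.

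Promoter sequence was read for the import genes because members of opposite direction could be compared there. RefSeq windows on GRCm38.p6, from 250 bases before to 50 after each gene start, were matched for 27 of the 31 members, leaving out Grpel2, Timm21, Tomm40l and Tomm7. The ETS core CCGGAAG, which is bound by GABPA, a factor known to regulate nuclear genes of mitochondria, was searched on both strands. It was present in 13 of the 27 members (48.1%), in 17.9% of the tested genes that had a window and in 9.93% of all genes with a window. The share did not separate the directions, since it was 4 of 7 among the members that rose (Grpel1, Timm10, Timm10b and Tomm70a) and 4 of 7 among those that fell (Pmpca, Pmpcb, Timmdc1 and Tomm34). It was 4 of 11 among the members tested and not called, and Timm8a2, not tested, held it too. Tomm70a is counted here as risen, though its direction is uncertain. The ETS pattern was picked from 9 after the match counts had been seen, so its share is a description. Stretches around the match are shown for 2 genes that rose and 2 that fell, the largest changes whose called probe sets moved in 1 direction and whose match lies before the start. They run 5′ to 3′ on the gene's strand, with the match or its reverse complement in capitals. The stretch of Grpel1 is chr5:36464941-36465027 (+ strand), that of Timm10 chr2:84826965-84827020 (+ strand), that of Timmdc1 chr16:38522761-38522847 (- strand) and that of Pmpcb chr5:21737104-21737159 (+ strand).
Grpel1: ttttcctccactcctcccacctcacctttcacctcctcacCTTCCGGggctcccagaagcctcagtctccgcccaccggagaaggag
Timm10: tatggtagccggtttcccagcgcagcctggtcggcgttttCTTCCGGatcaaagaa
Timmdc1: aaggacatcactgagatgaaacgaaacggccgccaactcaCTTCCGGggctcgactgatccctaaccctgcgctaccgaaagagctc
Pmpcb: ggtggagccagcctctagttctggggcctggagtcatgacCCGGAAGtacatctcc
The match ended 9 bases before the gene start in both Timm10 and Pmpcb, 137 bases before it in Timmdc1 and 197 in Grpel1.

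The other 8 patterns were searched the same way. The hypoxia response core ACGTG, bound by hypoxia-inducible factors, was present in 8 of 27 members (29.6%), in 28.2% of tested genes and in 21.8% of all genes with a window. It was in 3 of 7 members that rose (Timm10, Timm10b and Tomm20), in 1 of 7 that fell (Timmdc1) and in 3 of 11 tested and not called (27.3%). An NRF1-like pattern, GCGC and GCGC with any 2 bases between, was in 4 members (14.8%), beside 13.7% of tested genes and 7.0% of all. The shorter NRF1 pattern GCAT followed by GCGC was in 2 members (7.41%), beside 5.48% and 3.05%. The exact NRF1 pattern, which contains both, was in 0 of 27, beside 2.17% and 1.07%. The ERR-like pattern AAGGTCA was in 3 members (11.1%), Timm23, Timm44 and Timm8b, none of them called, beside 4.21% and 5.38%. The CRE core TGACG, which overlaps ACGTG where both occur in 1 run, was in 10 members (37.0%), beside 33.5% and 23.0%, and the CRE palindrome that contains it was in 0, beside 3.36% and 2.03%. The YY1 pattern AAGA followed by TGGC was in 1 member (3.70%), beside 4.82% and 3.19%. Matches are letters and not binding sites.

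At the outer membrane the receptor Tomm20 rose and the channel paralog Tomm40l fell. Of 6 tested TOM genes 2 rose (33.3%) and 1 fell (16.7%), beside 14.8% and 18.8% of all genes. The 2 were Tomm20 and Tomm70a, and the direction of Tomm70a is uncertain because its called probe sets disagreed. Tomm20, which binds presequences, had signals of 22899, 22269, 23346 and 22721 on control arrays 1 to 4 and 42174, 36089.5, 28861 and 31618 on hypoxia arrays 1 to 4. Every hypoxia array was above every control array, and hypoxia array 1 was the highest. Tomm20 rose from 22809 ± 446 to 34686 ± 5813 (log2 change 0.59 ± 0.14, adjusted p = 0.00545). Of its 5 other probe sets, 3 rose as well (1.01, 1.13 and 0.71) and the dimmest 2 did not pass (0.33 and -0.36).

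Tomm70a, the receptor for carrier precursors brought by cytosolic chaperones, was read differently by its probe sets. The brightest gave 1180.3, 1331, 1819.7 and 1658 on control arrays 1 to 4 and 5865, 5682, 2808 and 3143 on hypoxia arrays 1 to 4. Hypoxia arrays 1 and 2 stood well above hypoxia arrays 3 and 4 there, and all 4 were above control. This probe set rose 2.79-fold (log2 change 1.48 ± 0.25, adjusted p = 5.25e-04), and another rose by 1.48. Another Tomm70a probe set, of nearly the same mean, gave 2620.2, 2472, 2787 and 2600.5 on control arrays 1 to 4 and 1806, 1929, 2062 and 2195 on hypoxia arrays 1 to 4 and fell by 0.39 on the log2 scale (limma adjusted p = 0.0413 over all probe sets). A dimmer one changed by -1.87 (adjusted p = 5.63e-04), and the last lay below the filter. The mean over the 4 probe sets changed by 0.17 (adjusted p = 0.324). When hypoxia array 1 or hypoxia array 2 was left out, the falling probe set had the highest mean and the gene changed by -0.34 (adjusted p = 0.0546) or -0.38 (adjusted p = 0.079). Tomm70a therefore has no settled direction in these data.

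Tomm40l, a paralog of the channel protein Tomm40, gave 1055, 886, 1152 and 812 on control arrays 1 to 4 and 369, 395, 399.5 and 445 on hypoxia arrays 1 to 4. The groups lay far apart, with little spread in hypoxia. It fell 2.36-fold, from 976 ± 155 to 402 ± 31.6 (log2 change -1.24 ± 0.16, adjusted p = 8.18e-05), and its other probe set fell by 1.08 on the log2 scale. Tomm40, the beta-barrel channel itself, ran from 564 to 864 in control and 263 to 866 in hypoxia and changed by -0.42 (95% interval -1.06 to 0.21) without passing. Hypoxia array 1 was the lowest, and without it the change of Tomm40 was -0.11 (adjusted p = 0.745), while without hypoxia array 3 it was -0.66 (adjusted p = 0.086). Tomm22, the central receptor, ran from 1155 to 2302 in control and 2413 to 2802 in hypoxia, without overlap. It changed by 0.46 (95% interval 0.031 to 0.90) (adjusted p = 0.0945) on its brightest probe set, while the other rose by 0.61 (adjusted p = 0.00567). Control array 2 was the lowest, and without it the first changed by 0.24 (adjusted p = 0.26). Tomm7, a small subunit that modulates the complex, changed by 0.024 (95% interval -0.39 to 0.44), and its other 2 probe sets past the filter, at -0.27 and 0.55, did not pass. Tomm34, a cytosolic protein that binds Hsp70 and Hsp90 chaperones, gave 884, 878, 785 and 829.6 on control arrays 1 to 4 and 445, 710.5, 566 and 554 on hypoxia arrays 1 to 4. Hypoxia array 1 was the lowest, and the groups did not overlap. Tomm34 fell 1.49-fold (log2 change -0.57 ± 0.16, adjusted p = 0.0167). Tomm20l, a paralog of Tomm20, stayed at or below 57.2 on every array and was not tested.

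**Figure D2:**
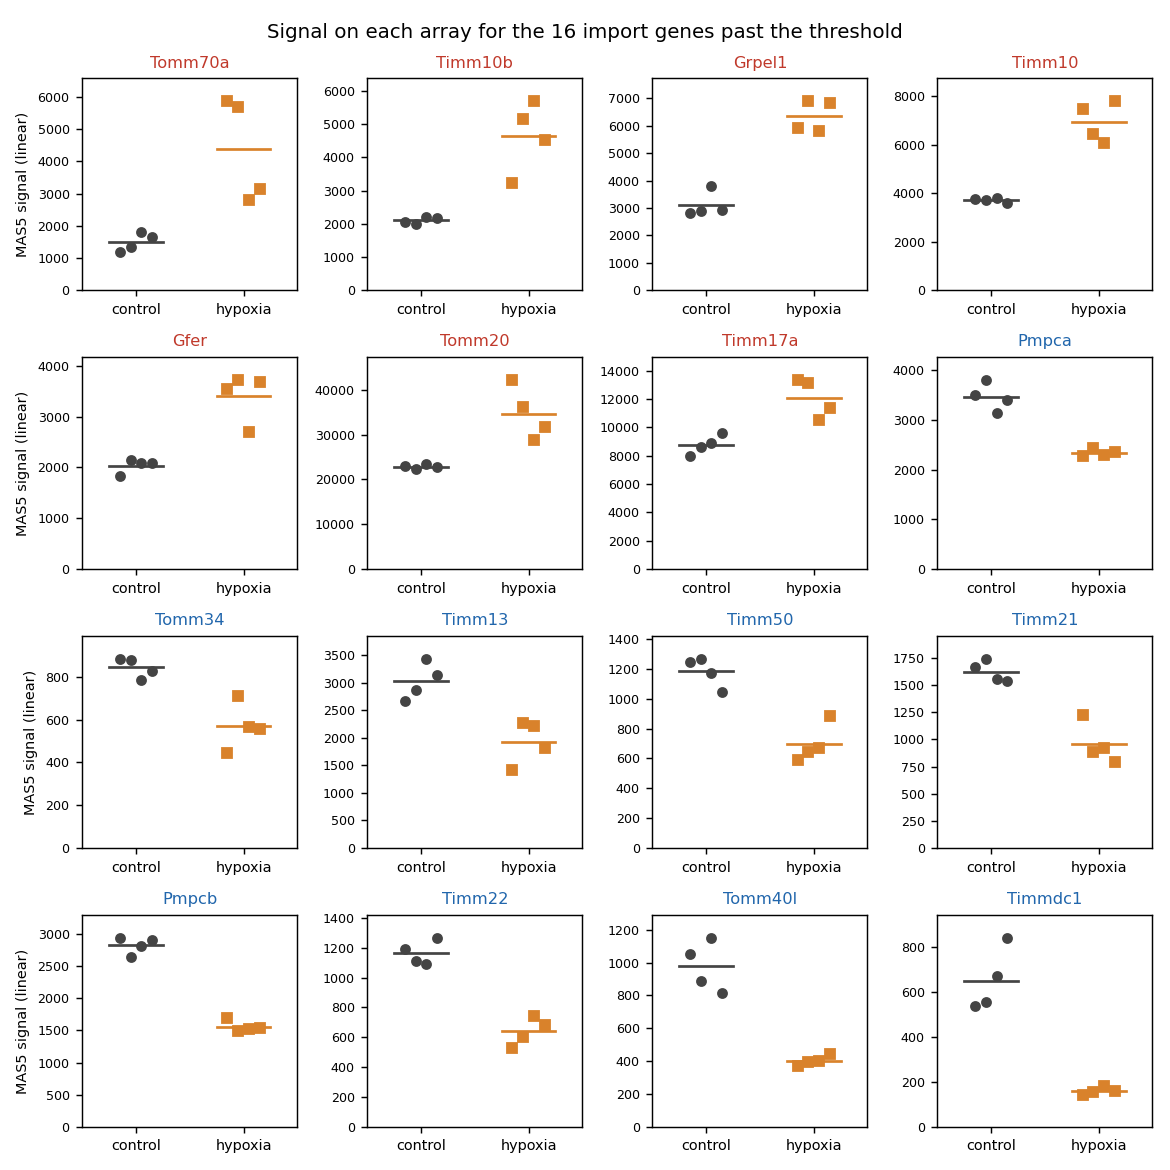
MAS5 signal (linear scale from 0) on each of the 8 arrays for the 16 import genes past the threshold, each on the probe set with its highest mean, with horizontal lines at the group means and titles in red for genes that rose and blue for genes that fell. No gene's groups overlap, and the 4 hypoxia values of Tomm70a fall into a high and a low pair.

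In the TIM23 complex the receptor Timm50 and the regulator Timm21 fell, and the channel-side subunit Timm17a rose. Timm50, which takes presequences from the outer membrane, gave 1248, 1268, 1170.4 and 1047 on control arrays 1 to 4 and 592, 641, 669 and 887 on hypoxia arrays 1 to 4. Hypoxia array 4 came nearest to control without reaching it. Timm50 fell 1.70-fold, from 1183 ± 100.1 to 697 ± 131 (log2 change -0.76 ± 0.16, adjusted p = 0.0028). A dimmer probe set of Timm50 changed by 0.50 in the other direction without passing, and the mean of both changed by -0.13 (adjusted p = 0.558), so its fall rests on the brighter probe set. Timm21, which links TIM23 with the TOM complex and with respiratory complexes, gave 1670.0, 1742, 1555 and 1533 on control arrays 1 to 4 and 1227, 887, 925 and 795 on hypoxia arrays 1 to 4. Hypoxia array 1 was the highest of its group and still below control. Timm21 fell 1.70-fold, from 1625 ± 98.3 to 959 ± 187 (log2 change -0.77 ± 0.16, adjusted p = 0.00234).

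Timm17a and Timm17b are alternative subunits of the TIM23 channel complex. Timm17a signals ran from 8014 to 9571 in control and 10489 to 13344 in hypoxia, and it rose 1.37-fold (log2 change 0.46 ± 0.13, adjusted p = 0.0176). The call of Timm17a was lost without control array 1 (adjusted p = 0.0558), without hypoxia array 2 (adjusted p = 0.0578) and with the replicate number as a block (adjusted p = 0.0555). Timm17b ran from 1296 to 1984 in control and 896 to 1434 in hypoxia and changed by -0.39 (95% interval -0.81 to 0.027) without passing, while its other probe set fell by 0.66 on the log2 scale (adjusted p = 0.0112). Timm23, the channel protein, ran from 15459.5 to 18097 in control and 17182 to 22278 in hypoxia, with hypoxia array 3 inside the control range and the others above it. Timm23 changed by 0.29 (95% interval 0.0091 to 0.58) without passing (adjusted p = 0.106), and it passed without hypoxia array 3 (change 0.37, adjusted p = 0.0413) and after quantile normalization (adjusted p = 0.0157).

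In the import motor the nucleotide exchange factor Grpel1 rose. Grpel1 resets the ATP cycle of mitochondrial Hsp70, and it gave 2809, 2892, 3796 and 2913 on control arrays 1 to 4 and 5910.5, 6894, 5820.2 and 6832 on hypoxia arrays 1 to 4. The lowest hypoxia array was well above the highest control array, which was control array 3. Grpel1 rose 2.06-fold, from 3103 ± 465 to 6364 ± 578 (log2 change 1.04 ± 0.14, adjusted p = 1.32e-04). Its paralog Grpel2 ran from 705 to 1080.0 in control and 724 to 926 in hypoxia and changed by -0.18 (95% interval -0.55 to 0.19) without passing. Timm44, which tethers Hsp70 to the channel, changed by -0.14 (95% interval -0.45 to 0.17), and Pam16, a J-like regulator of the motor, by 0.14 (95% interval -0.22 to 0.50). Their groups overlapped, and neither passed.

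Among the small Tim chaperones and the TIM22 complex, 2 of 8 tested genes rose and 2 fell (25% each), beside 14.8% and 18.8% of all genes. Timm10, which forms a hexameric chaperone with Timm9 for carrier precursors, gave 3774, 3708, 3806 and 3580.5 on control arrays 1 to 4 and 7469, 6429.8, 6067 and 7804 on hypoxia arrays 1 to 4. The control arrays were close together, and the hypoxia arrays were all higher. Timm10 rose 1.85-fold, from 3717 ± 99.9 to 6943 ± 826 (log2 change 0.89 ± 0.13, adjusted p = 2.13e-04). Timm10b, the related subunit held at the TIM22 complex, gave 2055, 1993, 2189.6 and 2174 on control arrays 1 to 4 and 3214, 5146, 5689 and 4505 on hypoxia arrays 1 to 4. Hypoxia array 1 was the lowest of its group and above control. Timm10b rose 2.15-fold (log2 change 1.10 ± 0.17, adjusted p = 3.34e-04), and its 3 other probe sets, of which 2 passed, gave 0.57, 0.59 and 0.71. Timm9, the partner of Timm10, ran from 605 to 806 in control and 532 to 922 in hypoxia and changed by -0.038 (95% interval -0.43 to 0.36) without passing.

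Timm22, the channel for carrier proteins, gave 1194, 1109.5, 1090.3 and 1267 on control arrays 1 to 4 and 528, 602, 744 and 684 on hypoxia arrays 1 to 4. Hypoxia array 3 was the highest of its group and remained below control. Timm22 fell 1.81-fold, from 1165 ± 81.5 to 639 ± 94.4 (log2 change -0.86 ± 0.15, adjusted p = 8.84e-04), with a dimmer probe set at -0.98 that did not pass. Timm13, which forms a second hexameric chaperone with Timm8 proteins, gave 2667, 2869, 3437 and 3136 on control arrays 1 to 4 and 1415, 2272, 2218 and 1823 on hypoxia arrays 1 to 4. Hypoxia array 1 was the lowest, and the groups did not overlap. Timm13 fell 1.58-fold, from 3027 ± 334 to 1932 ± 399 (log2 change -0.66 ± 0.17, adjusted p = 0.0093). Its partners Timm8a1 and Timm8b changed by 0.39 (95% interval -0.041 to 0.82) and 0.36 (95% interval 0.016 to 0.70) without passing. Without hypoxia array 1, the highest for Timm8a1, that gene changed by 0.18 (adjusted p = 0.368). Timm8b passed without hypoxia array 3 (change 0.50, adjusted p = 0.0115), and the dimmer probe set of Timm8a1 rose by 0.51 (adjusted p = 0.0328). Timm29, a TIM22 subunit, changed by 0.33 (95% interval -0.0083 to 0.68). Timm8a2 reached 44.3 at most and was not tested.

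In the disulfide relay Gfer rose. Gfer is the oxidase that recharges Chchd4, and it gave 1837, 2147, 2079 and 2092 on control arrays 1 to 4 and 3544, 3723, 2700.4 and 3679.9 on hypoxia arrays 1 to 4. Hypoxia array 3 was the lowest of its group and above every control array. Gfer rose 1.66-fold, from 2039 ± 138 to 3412 ± 480.3 (log2 change 0.73 ± 0.15, adjusted p = 0.00191), and its other probe set rose by 0.64. Chchd4, the oxidoreductase that traps incoming proteins, ran from 1627 to 2189.9 in control and 1976 to 2633 in hypoxia and changed by 0.30 (95% interval -0.03 to 0.63) without passing.

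Both subunits of the presequence peptidase fell. Pmpcb, the catalytic subunit, gave 2941, 2648, 2818 and 2899.8 on control arrays 1 to 4 and 1690.0, 1490.0, 1525 and 1533 on hypoxia arrays 1 to 4. The hypoxia values were close together and far below control. Pmpcb fell 1.80-fold, from 2827 ± 129.5 to 1559.7 ± 88.9 (log2 change -0.85 ± 0.13, adjusted p = 2.30e-04), and its other probe set fell by 1.65 on the log2 scale. Pmpca, which holds the presequence for cleavage, gave 3496, 3802, 3146 and 3396 on control arrays 1 to 4 and 2273, 2429.8, 2291 and 2361 on hypoxia arrays 1 to 4. The spread within hypoxia was small, and the groups did not overlap. Pmpca fell 1.47-fold, from 3459.9 ± 271 to 2339 ± 71.5 (log2 change -0.56 ± 0.13, adjusted p = 0.00426), with its other probe set at -1.19. Timmdc1 carries the Timm name but is an assembly factor of respiratory complex I. It gave 535, 554, 670.3 and 840.4 on control arrays 1 to 4 and 144, 153, 183 and 161 on hypoxia arrays 1 to 4, and all hypoxia values lay far below control. Timmdc1 fell 3.73-fold, from 649.9 ± 140.4 to 160.2 ± 16.6 (log2 change -1.90 ± 0.19, adjusted p = 1.13e-05), the largest absolute change among the tested members, on its only probe set.

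The agreement of probe sets was examined for the 17 members with more than 1 probe set past the filter. In 11 of them all probe sets changed in 1 direction. In the other 6, Timm44, Timm50, Timm9, Tomm20, Tomm7 and Tomm70a, probe sets changed in both directions, and only in Tomm70a did called probe sets do so. Of all 27022 probe sets past the filter, 28.8% were called. How often the probe sets of a gene agree in direction over all genes was not examined, so the 11 of 17 has no such share beside it.

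**Figure D3:**
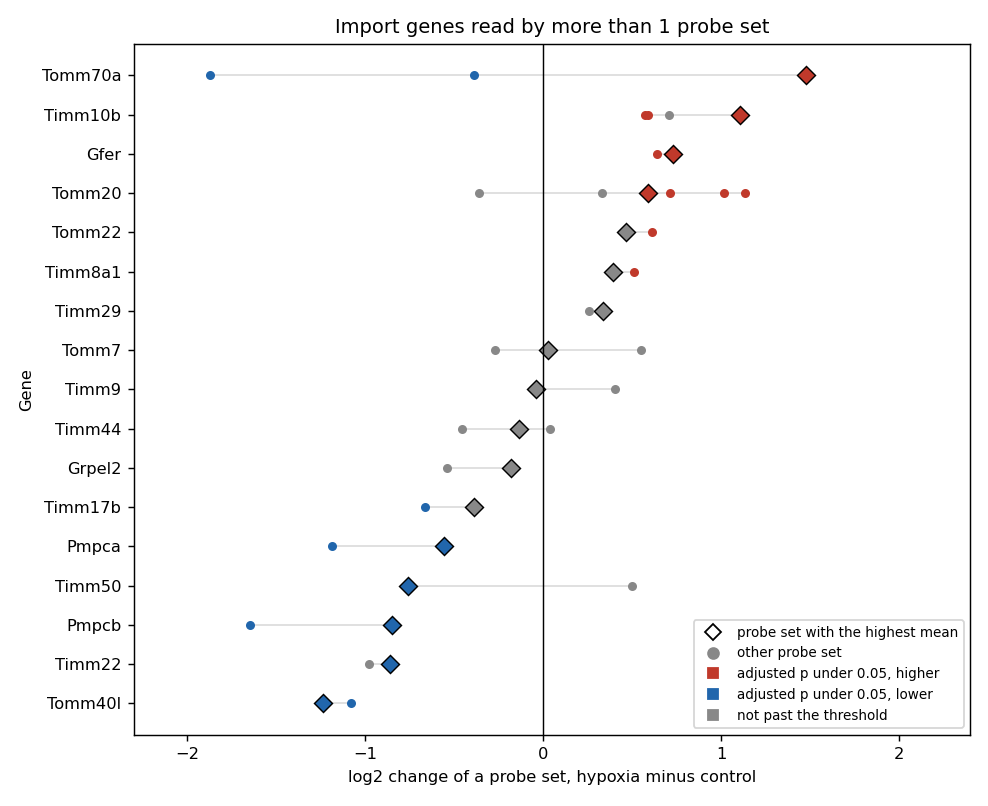
Log2 change of every probe set past the filter for the 17 import genes read by more than 1, with the brightest probe set as a diamond and colour showing the limma call over all probe sets (red higher, blue lower, grey not past the threshold). Tomm70a spans from -1.87 to 1.48 with called probe sets on both sides of 0, while both probe sets of Pmpca, Pmpcb, Tomm40l and Gfer lie on 1 side.

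Paralogs and partners were compared within each array as the log2 value of the first gene minus that of the second. The difference itself compares 2 probe sets, so only its shift with hypoxia is read. Of the 7 pairs examined with a two-sided exact permutation test, none passed after Benjamini-Hochberg adjustment over the pairs, and 4 against 4 arrays cannot give a p below 0.0286. An unadjusted p at that limit was reached by 3 pairs. Grpel1 minus Grpel2 was 1.97, 1.74, 1.87 and 1.42 on the control arrays and 2.86, 3.22, 2.94 and 2.86 on the hypoxia arrays, a shift of 1.22 ± 0.15 (SE, n = 4 per group, exact permutation p = 0.0286, adjusted p = 0.0667). Timm17a minus Timm17b was 2.60, 2.71, 2.35 and 2.26 on the control arrays and 3.20, 3.51, 2.95 and 3.64 on the hypoxia arrays, a shift of 0.85 ± 0.19 (SE, n = 4 per group, exact permutation p = 0.0286, adjusted p = 0.0667). The hypoxia values of these differences lay above every control value in both pairs. Timm9 minus Timm10 was -2.20, -2.58, -2.34 and -2.29 on the control arrays and -3.36, -2.78, -3.16 and -3.83 on the hypoxia arrays, a shift of -0.93 ± 0.23 (SE, n = 4 per group, exact permutation p = 0.0286, adjusted p = 0.0667), with every hypoxia value below control. The other 4 pairs overlapped. Pmpca minus Pmpcb shifted by 0.29 ± 0.10 (SE, n = 4 per group, exact permutation p = 0.0571, adjusted p = 0.1), Tomm40 minus Tomm40l by 0.81 ± 0.40 (SE, n = 4 per group, exact permutation p = 0.0857, adjusted p = 0.12), Timm10 minus Timm10b by -0.21 ± 0.25 (SE, n = 4 per group, exact permutation p = 0.371, adjusted p = 0.433) and Timm8a1 minus Timm8b by 0.033 ± 0.19 (SE, n = 4 per group, exact permutation p = 0.857, adjusted p = 0.857).

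**Figure D4:**
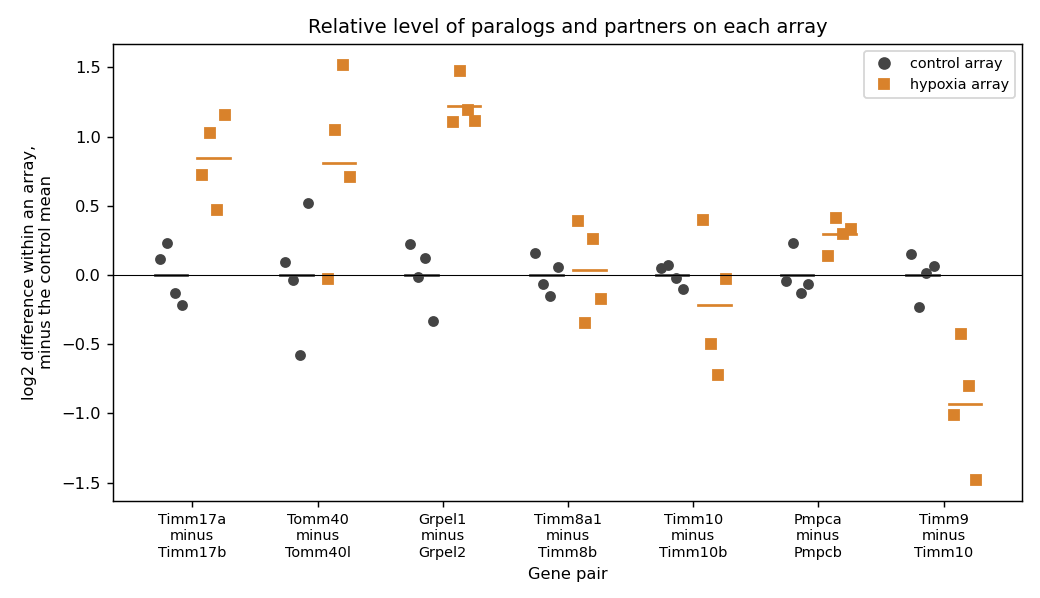
Log2 difference between the members of each of 7 gene pairs on every array, shown relative to the control mean of that pair, with control arrays as circles, hypoxia arrays as squares and lines at the group means. Grpel1 moved up against Grpel2 and Timm17a against Timm17b on all 4 hypoxia arrays, and Timm9 moved down against Timm10, while the other 4 pairs overlap.

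Other import genes outside the Timm and Tomm families were mixed too. Of 20 listed genes 17 were tested, 4 rose and 3 fell (median change -0.02), that is 41.2% called beside 33.6% of all genes. Mtx2, an outer-membrane protein of the assembly machinery for beta-barrels, rose 2.32-fold, from 2275 ± 207 to 5468 ± 1704 (log2 change 1.21 ± 0.20, adjusted p = 4.31e-04). Its signals were 2435, 2122, 2472 and 2073 on control arrays 1 to 4 and 7706, 5857, 4369 and 3938 on hypoxia arrays 1 to 4, without overlap. Mtx2 was read on its only probe set, of a kind that can bind related transcripts. Hspe1, the chaperonin cofactor, and Hspa9, the mitochondrial Hsp70 served by Grpel1, rose by 0.67 and 0.56 on the log2 scale, and Cox18, an inner-membrane insertase, by 0.47 (adjusted p = 0.0369). The groups of Cox18 overlapped, with hypoxia array 3 at 799 and control array 2 at 808.5. Of the list, 3 genes rose in place of 4 with the replicate block and in 7 of the 8 fits that each left out 1 array. The count was also 3 without the intensity trend in the fit, and without probe sets that can bind related transcripts. When probe sets were averaged within each gene, 3 rose and 2 fell, in place of 4 and 3. Mipep, the peptidase that trims some precursors after Pmpcb, fell 2.51-fold, from 1603 ± 122 to 635 ± 105 (log2 change -1.33 ± 0.15, adjusted p = 3.54e-05), with signals of 1485, 1624, 1537 and 1765 on control arrays 1 to 4 and 540.5, 624, 591 and 783 on hypoxia arrays 1 to 4. Dnajc15 and Dnlz, cochaperones of mitochondrial Hsp70, fell by 0.99 and 0.58. The other 10 tested genes (Agk, Hspd1, Immp1l, Mtx1, Mtx3, Oxa1l, Pitrm1, Romo1, Samm50 and Xpnpep3) did not pass, with changes from -0.26 to 0.31, and the other 3 listed genes were not analysed here.

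Transcripts of proteins that the Chchd4 and Gfer relay is known to import fell or did not pass. Of 14 listed relay substrates 13 were tested, and 5 fell and none rose by limma (38.5% called; median change -0.48), with 8 lower and 1 higher at an unadjusted p of 0.05. Of all 13257 genes 33.6% were called, 14.8% higher and 18.8% lower, with 3152 lower and 2508 higher at the unadjusted threshold. The share called in either direction was near that of all genes. By direction, 38.5% of the 13 were lower, beside 18.8%, and 0% higher, beside 14.8%. Chchd3, a subunit of the complex that shapes cristae, changed by -0.93 and Ndufb7 and Ndufa8, subunits of complex I, by -0.91 and -0.66. Chchd10 changed by -0.74 and Cmc2, a factor for cytochrome oxidase, by -0.72. All 5 passed, and their groups did not overlap. The other 8 did not pass, with changes from -0.54 for Chchd7 to 0.62 for Cmc1. Without hypoxia array 1, 8 of these genes fell, beside 2492 of the 13226 genes then tested.

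Proteases and prohibitins that handle imported proteins were tested for 10 of 11 listed genes, and 4 rose and 2 fell (60% called; median change 0.14), beside 33.6% of all genes called, 14.8% higher and 18.8% lower (median change -0.042). Clpx, the unfoldase of the matrix protease ClpXP, rose 2.75-fold, from 2364 ± 159.7 to 6685 ± 1701 (log2 change 1.46 ± 0.17, adjusted p = 4.29e-05), with signals of 2202, 2401, 2283 and 2570.2 on control arrays 1 to 4 and 8796, 7312, 5517 and 5115 on hypoxia arrays 1 to 4. Clpp, its protease partner, Phb2, a prohibitin, and Afg3l2, an inner-membrane protease, rose by 0.73, 0.68 and 0.62. Spg7, which pairs with Afg3l2, and Oma1, a stress-activated protease, fell by 0.99 and 0.69 on the log2 scale. The other 4 tested genes (Afg3l1, Htra2, Lonp1 and Yme1l1) did not pass, with changes from -0.49 to 0.22. Without probe sets that can bind related transcripts, 2 of these genes rose, and 3 rose when probe sets were averaged within each gene.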

How the data were processed

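Total RNA of 8 quadriceps samples, grouped by sample title, was read on Affymetrix mouse expression arrays. The authors deposited 1 intensity per probe set and array, named MAS5 signals in the submitters' processing notes, with version and filters not given in the sources used here. MAS5 subtracts background and scales each array by 1 factor. The 2% trimmed mean was alike on all arrays, so no further normalization was applied. The number of arrays limits the precision.

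Of 45101 probe sets, 64 controls and the 40% with the lowest mean were left out, which left 27022. Symbols came from the platform annotation, and the brightest probe set on average stood for each of the 13257 genes. Values were transformed as log2(signal + 16), which understates changes of dim genes. Groups were compared with limma 3.58.1 in R 4.3.3 (intensity trend, two-sided, no block, Benjamini-Hochberg over all genes, threshold 0.05). The procedure was tested on simulated data. Of 50 planted log2 changes of each size, 5 of size 0.5 were recovered, 30 of size 1, 42 of size 2 and 50 of size 4. Far fewer genes were changed there than were called in the real data, so recovery in the real data may differ. Members and lists were chosen with earlier results of these data known. All array values were printed for called members with a change of at least 0.5, and up to 4 genes of each other list, or all in a direction where 5 or fewer passed, were named. All 9 promoter patterns tried are reported. Alternatives were other scaling, pseudocounts, filters, probe set rules, eBayes settings, array weights, a replicate block and leaving out each array.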

Additional observations from a re-analysis of the deposited data

Results flagged for a closer look

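Among 72 groups of 4 arrays, covering the 29 tested import genes and the 7 gene pairs, 4 held a value far from the other 3 by Dixon's criterion, and chance gives about 1 in 20. Tomm22 was 1155 on control array 2, where the other control arrays gave 2056 to 2302. Grpel1 was 3796 on control array 3, where the others gave 2809 to 2913. Timm8a1 was 2256 on hypoxia array 1, where the others gave 1212 to 1307. Gfer was 2700.4 on hypoxia array 3, where the others gave 3544 to 3723.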

How the results depend on the processing

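Under 19 alternatives the counts of import genes that rose and fell stayed within 1.5 times the reported counts. When each array was left out in turn, 5 to 9 import genes rose and 9 fell, other import genes gave 3 to 4 higher and 3 lower, relay substrates 5 to 8 lower and proteases 4 higher, and the median change of import genes ran from -0.11 to 0.16. Relay substrates gave 8 lower with a 60% filter, beside 2319 of 9952 genes, and with array weights, beside 2620 of 13257 genes. Without probe sets marked x or s, an alternative chosen after seeing the data, the median change was -0.16 and 2 proteases rose. Of the import genes 7 then rose and 11 fell, with Tomm22 called higher and Timm17b lower. Tomm70a was called lower there (change -0.39, limma adjusted p = 0.0328), since that rule takes another probe set. Tomm70a changed by -0.34 without hypoxia array 1 and by -0.38 without hypoxia array 2, for the same reason, and by up to 1.66 without hypoxia array 3. Same-numbered arrays of the groups did not deviate together (correlations of -0.075 to 0.0024), and 0 of 8 arrays matched its own number best. No pairing by number was seen, but with 4 arrays per group a weak pairing could go unseen. With the replicate block 1782 genes were higher and 2300 lower, beside 1959 and 2489 without it, 6 import genes rose and 9 fell, Timm17a lost its call (adjusted p = 0.0555), and no other call among the 29 members changed. Other import genes then gave 3 higher in place of 4, and relay substrates 6 lower in place of 5. Tomm7 and Timm9, which did not pass, changed sign under 6 and 5 alternatives. Depth does not apply to arrays, and the dimmest tested import gene averaged 160.2 in a group, above the filter at 90.2.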
